A study of Mus musculus with 4 samples.

Results

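The sites described here are peaks of estrogen receptor alpha (ESR1) that were called in mouse uterus, were not called in liver, and lay next to a liver peak. A uterus peak was taken when it overlapped no liver peak by 1 bp or more and its summit, the point of highest signal, lay at most 10 kb from the nearest liver summit on the same autosome. The rule was met by 1840 peaks of the 24836 in the uterus list, or 7.50% of the 24527 autosomal uterus peaks. They are called liver-adjacent uterus sites below. The 21060 autosomal uterus-only peaks further from liver binding are called remote, and the 1627 autosomal uterus peaks that overlapped a liver peak are called shared. The sites were thus chosen by the positions of the peaks called in both lists, so their number and their distances are a description and carry no test.

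The series held 4 samples: from uterus and from liver, 1 library of ESR1-bound DNA and 1 of input DNA each. Both tissues came from female C57BL/6 mice aged 8 weeks with no treatment named in the labels, and were frozen, crosslinked and taken through chromatin immunoprecipitation and sequencing (ChIP-seq). Neither the stage of the estrous cycle nor the number of animals behind a library is given in the sources used here. Each tissue had 1 ESR1 library, so the spread between animals is unknown and the tissues are compared without a test. The tissue labels could not be checked against marker genes, since the lists hold peak positions and no expression values.

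ESR1, a nuclear receptor activated by estrogens, binds DNA directly at palindromic estrogen response elements or indirectly through other bound factors, and recruits coactivators to enhancers and promoters. The uterus is a classical target organ in which estrogens drive growth of epithelium, stroma and muscle, while hepatocytes use the same receptor in lipid and lipoprotein metabolism. ESR1 sites often lie in groups along the genome, so a site used in one tissue can have a site used in another tissue within a few kilobases.

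Depth was similar in the libraries, with 22298008 unique tags in uterus and 20016495 in liver. The weakest listed autosomal liver peak held 18 tags and the lowest decile of the liver peaks ended at 36, so signal under the authors' cutoff in liver is not seen at a site called uterus-only. A tag count in whole tissue does not tell apart fewer cells with bound receptor from less binding per cell. Coordinates refer to mm9, the build of the deposited lists. A genome and annotation of that build were not used here, so neither the sequences nor the genes at these sites are given.

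Liver-adjacent uterus sites reached high enrichment next to liver peaks of ordinary strength. Values are the authors' own for each peak, namely tags inside the peak and fold enrichment over the local background from the input control, and they rank peaks within 1 list. The most enriched site, on chromosome 6 at 144710296 to 144711011, had 325 tags and 132-fold enrichment in uterus. Its nearest liver summit was 2.72 kb away in a peak of 44 tags and 10.4-fold enrichment. That liver peak was shared, and the uterus peak over it held 55 tags at 21.1-fold. The next site, on chromosome 2 at 32102099 to 32102976, held 369 tags at 113-fold in uterus, 2.01 kb from a shared liver peak of 40 tags and 7.71-fold, where the uterus peak held 133 tags. The uterus library thus had far more tags at the uterus-only site than at the shared site beside it in both places.

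The other 6 of the 8 sites of highest fold enrichment stood beside liver-only peaks. On chromosome 3, a site at 137893304 to 137894624 held 400 tags at 113-fold, and one at 133421007 to 133421854 held 261 tags at 110-fold. Their liver neighbours were 4.03 and 8.21 kb away, with 73 and 61 tags. Neither liver neighbour was listed in uterus, and neither uterus site was listed in liver, so each locus held a separate site for each tissue. The site on chromosome 15 at 25572780 to 25573572 held 347 tags at 99.2-fold, with a liver-only summit at 1.89 kb in a peak of 102 tags and 17.8-fold. The remaining ones lay on chromosome 4 at 131478645 to 131479460 (98.3-fold), chromosome 5 at 120944993 to 120946067 (96.7-fold) and chromosome 11 at 100715363 to 100716042 (96.5-fold). Across the 8 sites the liver neighbours had 40 to 102 tags and 7.71- to 19.2-fold enrichment, against a median of 58 tags and 11.2-fold over all 6896 autosomal liver peaks.

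By tags the leading liver-adjacent site lay on chromosome 13 at 52094527 to 52096374, with 657 tags and 96.1-fold enrichment, 9.90 kb from a liver-only peak of 54 tags. On chromosome 1, the site at 121066868 to 121067934 held 637 tags, and its liver-only neighbour at 2.76 kb held 47. The site on chromosome 6 at 121117466 to 121119966 held 547 tags over a width of 2501 bp, which adds tags that a narrower peak would not hold. These counts lay far above the median of 57 tags over all 1840 sites. On chromosome 9, 515 tags were found at 8972410 to 8973443, beside a shared site that was stronger still in uterus, at 631 tags. The other leading sites by tags were on chromosome 2 at 11461593 to 11462541 (487 tags), chromosome 5 at 150122469 to 150123987 (431 tags) and chromosome 10 at 44416557 to 44418298 (421 tags), together with the site on chromosome 5 at 120944993 (421 tags) named above. Liver neighbours of the 8 sites held 37 to 139 tags.

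The distance from a liver-adjacent uterus summit to the nearest liver summit had a median of 4.53 kb (4.30 to 4.80, an interval from order statistics), with quartiles of 2.41 and 7.30 kb. Within 1 kb lay 106 sites, or 5.76%, and 265 lay at 1 to 2 kb, 617 at 2 to 5 kb and 852 at 5 to 10 kb. Few sites can lie within 1 kb, because most peaks so close would overlap. The liver summit was at the higher coordinate for 910 sites and at the lower for 930, and the share at the higher coordinate was 49.5% (Wilson interval 47.2 to 51.7, which covers counting only). The closest summits were 423 bp apart, on chromosome 19 with a uterus peak at 47044846 to 47045400 (40 tags, 6.99-fold) and a liver-only peak at 47045480 to 47045891 (28 tags, 7.82-fold). The next 3, on chromosomes 1, 9 and 4, had summits 457, 469 and 481 bp apart and held 38 to 50 tags. All 4 of these closest sites were weak in uterus by tags, below the median of the group. Because overlap is excluded, summits this close leave little room on the sides of the peaks that face each other. How far this limits width or tags was not tested. The 4 uterus peaks were 483 to 555 bp wide, against a median of 596 bp over all sites. On chromosome 4, the uterus peak at 150172806 to 150173318 began 2 bp after the liver peak ended.

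**Figure D1:**
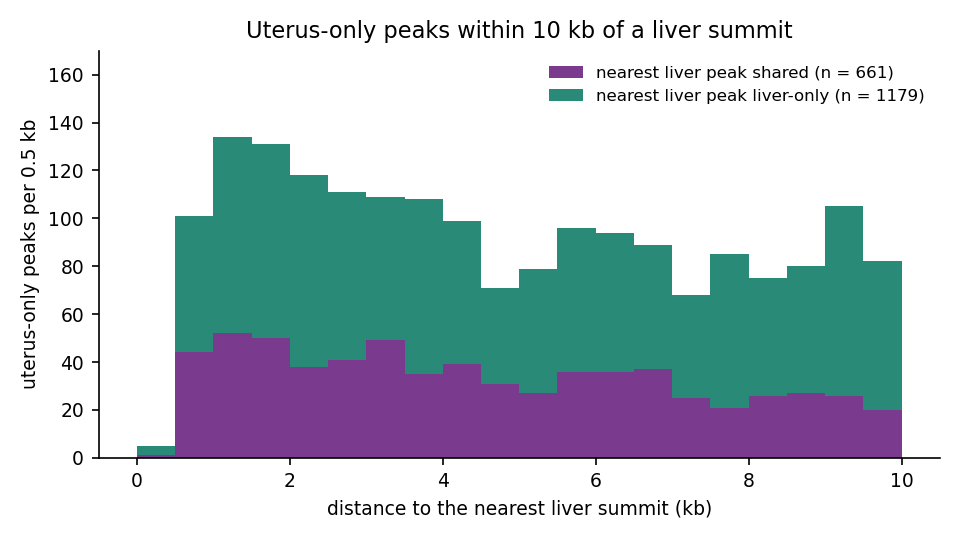
Number of liver-adjacent uterus sites (y axis, per 0.5 kb) by distance to the nearest liver summit (x axis, kb), stacked by whether that liver peak was shared (661 sites) or liver-only (1179 sites). Counts are highest between 1 and 2 kb and the first 0.5 kb is nearly empty.

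Peaks on both sides of the rule's limits were as follows. At the distance limit, 187 liver-adjacent sites lay 9 to 10 kb from a liver summit. They had a median of 54 tags (49 to 58) and 13.7-fold enrichment. The 148 uterus-only peaks at 10 to 11 kb had medians of 63 tags (56 to 68) and 14.0-fold. The sites just inside were on chromosome 15 at 103060188 (9.99 kb, 26 tags), chromosome 1 at 155825391 (9.98 kb, 27 tags) and chromosome 10 at 82754355 (9.97 kb, 54 tags). The peaks just outside were on chromosome 1 at 182925417 (53 tags), chromosome 14 at 46062305 (86 tags) and chromosome 15 at 103145362 (92 tags), at 10.002, 10.006 and 10.006 kb. At the overlap limit, 12 liver-adjacent sites had a gap of up to 50 bp between peak edges. Their median was 62 tags (48 to 136), with summits 673 bp apart. The 14 shared uterus peaks that overlapped a liver peak by no more than 50 bp had a median of 44.5 tags (35 to 62). Their summits were 681 bp apart. At both limits the intervals of the tag medians overlap.

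The liver peaks beside these sites fell into 2 kinds. For 661 of the 1840 sites, or 35.9% (33.8 to 38.1), the nearest liver peak was itself shared, so the uterus library had a peak at the liver site and another, uterus-only, beside it. For 1179 sites, or 64.1%, the nearest liver peak was liver-only, so neither peak of the pair overlapped a peak of the other list. A shared site could still lie further off in the same locus. Counted once each, 1355 liver peaks served as the nearest neighbour, 19.6% of all autosomal liver peaks, and 454 of them (33.5%, 31.04 to 36.1) were shared, against 23.8% of all autosomal liver peaks. Seen from the liver list, 542 of 1638 shared liver peaks had a uterus-only summit within 10 kb (33.1%, 30.9 to 35.4), compared with 1151 of 5258 liver-only peaks (21.9%, 20.8 to 23.03).

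The density of uterus-only summits around liver peaks differed in shape between the kinds. Around shared liver peaks it declined with distance, from 33.0 summits per Mb (27.04 to 39.8) at 1 to 2 kb through 29.0 at 2 to 5 kb, 23.9 at 5 to 10 kb, 22.6 at 10 to 20 kb and 20.2 at 20 to 50 kb to 18.3 (17.7 to 18.99) at 50 to 100 kb. Around liver-only peaks it was level, at 16.2 per Mb (13.8 to 18.8) at 1 to 2 kb, 15.3 at 2 to 5 kb, 16.2 at 5 to 10 kb and 15.8 (15.5 to 16.2) at 50 to 100 kb. The density at 1 to 10 kb was 1.45 times that at 50 to 100 kb around shared peaks (1.34 to 1.57) and 1.00 times around liver-only peaks (0.9501 to 1.06). From 1 kb outward the density around liver-only peaks was above the mean of 9.56 per Mb over the autosomal span. Within 1 kb, where overlapping uterus peaks are left out by definition, it was 5.80 per Mb (4.44 to 7.45). Around liver-only peaks the ratio was 0.935 with peaks up to 500 bp apart counted as shared, and 1.15 (1.03 to 1.27) when both lists were limited to MACS scores of 200 or more, so its direction depends on such settings. The intervals are for the counting of pairs alone; a uterus site near several liver peaks is counted with each, so they are too narrow.

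Remote uterus-only peaks had more uterus-only company than liver peaks of either kind had. Around the remote uterus-only peaks, with the central peak left out, the density was 56.6 per Mb (54.3 to 58.9) at 1 to 2 kb and fell to 19.9 per Mb at 50 to 100 kb. Around the uterus peaks at shared sites it was 35.03 per Mb (28.9 to 42.1) at 1 to 2 kb and 18.4 per Mb at 50 to 100 kb. Far from the centre these densities were close to each other, and near it they were not.

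**Figure D2:**
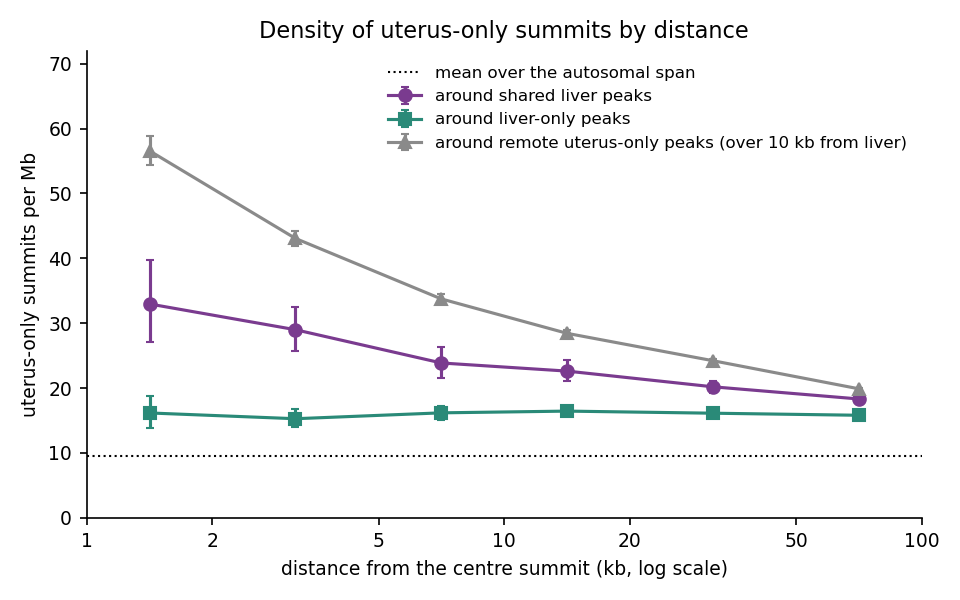
Density of uterus-only summits (y axis, summits per Mb, both sides of the centre) by distance (x axis, kb, log scale, 6 ranges from 1 to 100 kb) around shared liver peaks, liver-only peaks and remote uterus-only peaks, with 95% Poisson intervals as bars. The liver-only line stays between 15.3 and 16.5 per Mb, the shared line declines from 33.0 to 18.3, and the dotted line marks the mean of 9.56 per Mb.

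Most liver peaks had a single liver-adjacent uterus site. Of the 1355 neighbouring liver peaks, 1010 had 1 such site, 239 had 2, 78 had 3, 22 had 4 and 6 had 5. As a result 830 of the 1840 sites (45.1%) shared their nearest liver peak with another site and are not independent of each other. Where a liver peak had 2 or more sites, they lay on both sides of it in 167 of 345 cases (48.4%, 43.2 to 53.7). Among the sites beside liver-only peaks, 848 of 1179 (71.9%, 69.3 to 74.4) were also the nearest uterus peak of that liver peak, which makes reciprocal pairs of a uterus-only and a liver-only site. These 1179 sites had 901 liver-only peaks as neighbours. Each of those has 1 nearest uterus peak, so at most 901 sites could be reciprocal, and the share is largely set by the rule. More than 1 liver summit lay within 10 kb of 427 sites (23.2%), and 3 or more within 10 kb of 97 (5.27%).

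Of the 6 liver peaks with 5 liver-adjacent uterus sites, the 3 whose sites had the highest summed tags were all shared. On chromosome 5 the liver peak at 125533400 to 125534028 held 51 tags, and the uterus peak over it 134. Its 5 uterus-only sites began at 125526651 (93 tags), 125536165 (48), 125536993 (219), 125538567 (78) and 125540892 (107), so only the third of them held more tags than the shared site. On chromosome 12 the liver peak at 85104913 to 85105364 held 33 tags, and the uterus peak over it 46. The uterus-only sites there began at 85100359 (72 tags), 85101215 (46), 85106895 (172), 85108780 (37) and 85109341 (90), and 3 of the 5 held more tags than the shared site. On chromosome 17 the liver peak at 46210680 to 46211230 held 43 tags, and the uterus peak over it 67. Here the 5 sites began at 46208431 (39 tags), 46209071 (43), 46213406 (40), 46217164 (88) and 46218022 (139). The tags were highest on the side that faced a run of further uterus-only peaks beyond 10 kb, of which the strongest held 584 tags at 85.1-fold.

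**Figure D3:**
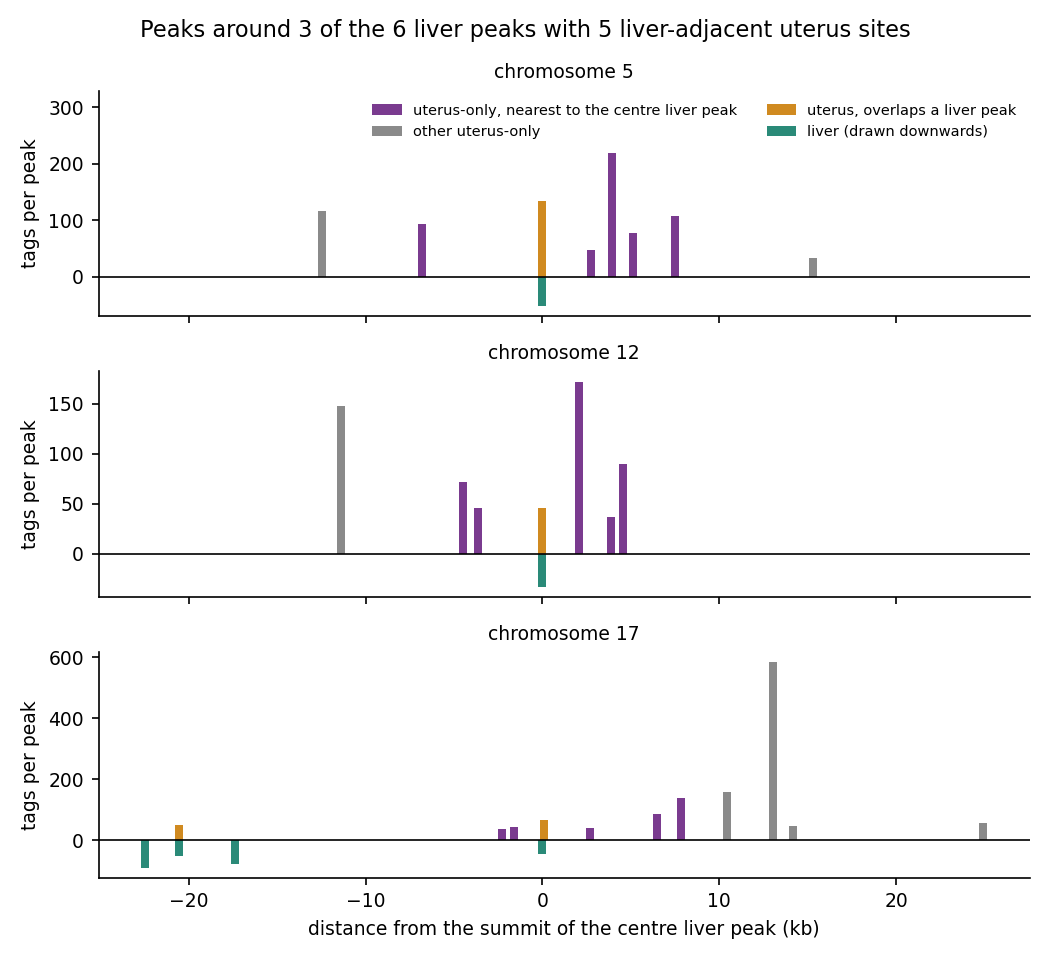
Tags per peak (y axis, uterus upwards, liver downwards) by distance from the summit of the central liver peak (x axis, kb, within 25 kb) at 3 liver peaks on chromosomes 5, 12 and 17, those with the highest summed tags among the 6 liver peaks with 5 liver-adjacent uterus sites. Each locus has 5 such sites around 1 shared site, and on chromosome 17 the uterus peak with 584 tags lies 13.03 kb from the centre, past the 10 kb limit.

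When uterus and liver summits no more than 10 kb apart were chained into loci, the 1840 sites fell into 1239 loci with a median length of 8.81 kb. Of these, 862 held 1 liver-adjacent uterus site, 235 held 2, 133 held 3 to 5 and 9 held 6 or more. The simplest form, 1 uterus and 1 liver peak that did not overlap, made up 367 loci. A shared site was part of 508 loci (41.0%), and the other 731 loci, with 996 sites, had none. The locus with the most sites, chosen after its values were seen, spanned 79604641 to 79630837 on chromosome 10 and held 8 liver-adjacent sites with 780 tags in all, among 10 uterus and 5 liver peaks. On chromosome 16, 7 uterus-only and 4 liver-only peaks lay between 33912712 and 33951446 with no shared site at all. The longest locus ran for 114 kb on chromosome 14 (26270499 to 26384955), where liver peaks outnumbered uterus peaks by 21 to 14, and 7 of the uterus peaks were liver-adjacent.

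Company of other uterus peaks depended on the kind of neighbour. Another uterus summit lay within 10 kb of 1263 of the 1840 sites (68.6%, 66.5 to 70.7), compared with 46.5% of remote uterus-only peaks and 47.7% of all autosomal uterus peaks. Much of this follows from the rule: a site beside a shared liver peak has the shared uterus peak next to it, and 659 of 661 such sites had company. Beside liver-only peaks the share was 51.2% (48.4 to 54.1). Counting uterus-only peaks alone as company, it was 59.2% (55.4 to 62.8) for sites beside shared peaks, 47.6% (44.7 to 50.4) for sites beside liver-only peaks and 46.5% (45.9 to 47.2) for remote peaks. The value beside liver-only peaks is near the background of the list. Over 100 kb on either side, the median was 6 other uterus summits for liver-adjacent sites, 4 for remote peaks and 3 for shared uterus peaks. Split by neighbour, the liver-adjacent sites had a median of 8 beside shared peaks and 5 beside liver-only peaks.

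In strength the liver-adjacent sites were ordinary uterus peaks. Their median was 57 tags (55 to 59), against 54 (53 to 54) in remote peaks and 72 (68 to 74) in shared uterus peaks. Median fold enrichment was 13.3 (13.0 to 13.7), against 14.9 (14.8 to 15.1) in remote and 12.4 (11.98 to 12.9) in shared peaks. Median widths were 596, 572 and 689 bp. The top decile of all autosomal uterus peaks by fold enrichment, at 37.3-fold or more, held 169 of the 1840 sites (9.18%, 7.95 to 10.6), beside 10.1% of all autosomal uterus peaks. This share is near the background. The lowest decile by fold enrichment held 236 of the sites (12.8%, 11.4 to 14.4). By tags, the lowest decile held 120 of the sites (6.52%, 5.48 to 7.74) and the top decile 168 (9.13%, 7.90 to 10.5). For the deciles by tags and the lowest decile by fold enrichment, the shares over all autosomal uterus peaks are not given. Tag counts are whole numbers, so ties at the cut can shift such a share.

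Fold enrichment was lower closer to the liver summit. Its median was 11.7 (10.8 to 13.3) within 1 kb, 12.5 at 1 to 2 kb, 13.6 at 2 to 5 kb and 13.7 at 5 to 10 kb, then 14.6 at 10 to 20 kb, 14.0 at 20 to 50 kb, 14.2 at 50 to 100 kb and 15.4 (15.3 to 15.5) beyond 100 kb. Tags followed no such order, with medians of 50, 62, 58 and 56 in the 4 ranges within 10 kb and 52 beyond 100 kb. Tags per kb divided by fold enrichment, a quotient that rises with the local control level, had medians of 7.22, 7.20, 6.81 and 6.56 within 10 kb and 5.85 beyond 100 kb. The quotient contains the fold enrichment, and the part of the control level in the lower enrichment was not tested. Peaks with other uterus summits within 10 kb had the same order as those without. With company, liver-adjacent sites had a median of 13.6-fold (13.2 to 14.1) and remote peaks 15.3-fold (15.1 to 15.5), and without company the medians were 12.8-fold (12.4 to 13.3) and 14.7-fold (14.5 to 14.8).

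**Figure D4:**
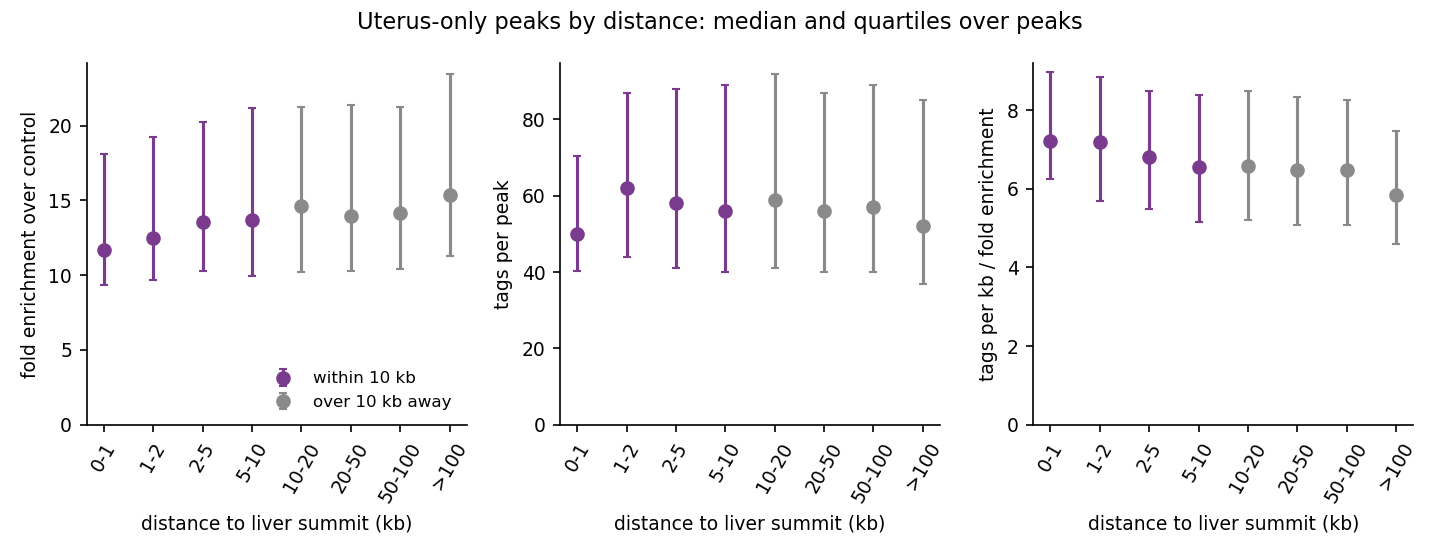
Fold enrichment (left), tags per peak (middle) and tags per kb divided by fold enrichment (right) of uterus-only peaks in 8 ranges of distance to the nearest liver summit (x axis, kb), as medians with quartiles over peaks. Median fold enrichment is 11.7 within 1 kb and 15.4 beyond 100 kb, and the quartiles of neighbouring ranges overlap widely.

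At a shared neighbour, the uterus library itself compares the sites, since both peaks were counted in the same tags. The liver-adjacent site held fewer tags than the uterus peak at the shared site in 445 of 661 pairs (67.3%, 63.7 to 70.8), more in 211 and the same number in 5. Median tags were 59 at the liver-adjacent site and 87 at the shared site, and the median ratio was 0.690 (quartiles 0.348 and 1.19). The shared peaks were also wider, with medians of 599 bp at the liver-adjacent and 717 bp at the shared sites, and per kb the liver-adjacent site held fewer tags in 413 pairs (62.5%). By fold enrichment it was lower in 373 pairs (56.4%, 52.6 to 60.2). An exact binomial interval of the site's share of the pair's tags lay below an even split in 339 pairs, above it in 118 and across it in 204. The tags of the sites in a pair had a Spearman correlation of 0.15 and a Pearson correlation of log2 values of 0.18. The 661 pairs rest on 454 shared sites and 1 library, so these values are descriptions. Uterus-only peaks away from liver binding also held fewer tags than shared ones, with medians of 54 in remote and 72 over all shared uterus peaks. Whether neighbouring pairs differ from this background was not tested.

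Some uterus-only sites far exceeded the shared site next to them. The highest ratio was on chromosome 1, where the site at 84269627 to 84270334 held 250 tags at 94.3-fold and the uterus peak at the shared site 26 tags at 16.6-fold. Liver had 152 tags there, in the peak at 84274791 to 84275929, although the uterus peak over it was weak. On chromosome 12, 242 tags at 111360868 to 111361724 stood against 26 at the shared site, and 401 tags at 82128394 to 82129949 stood against 60. The fourth was the chromosome 6 site with 325 tags described first, against 55. In these 4 loci the liver-adjacent site held 5.91 to 9.62 times the tags of the site that the liver library also used.

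The 4 sites with the lowest ratios, a choice that favours strong shared sites, had 27 to 43 tags beside 461 to 1033. On chromosome 1 the site at 38306352 to 38306845 held 33 tags at 9.13-fold, and the shared site 1033 tags at 75.6-fold in uterus and 505 tags at 61.4-fold in liver. On chromosome 10 a site at 94607096 held 30 tags and the shared site 570. The sites on chromosome 1 at 165219725 and chromosome 19 at 53931155 held 27 and 43 tags, against 461 and 717 at their shared sites. Another liver-adjacent site beside the shared site of 1033 tags held 165 tags. All 4 sites of lowest ratio were on the side of the shared site with the higher coordinates, 4.04 to 7.80 kb from the liver summit.

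**Figure D5:**
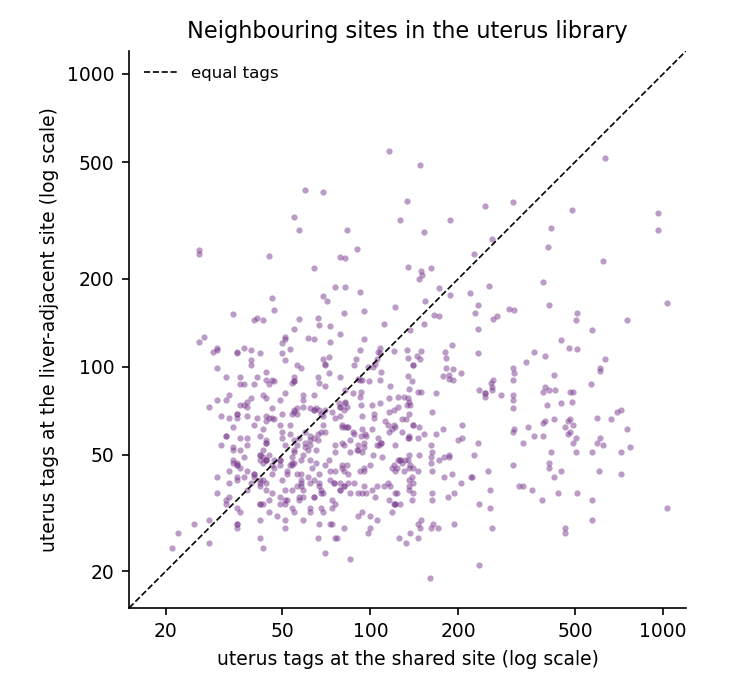
Uterus tags at each liver-adjacent site (y axis, log scale) against uterus tags at the shared site beside it (x axis, log scale), for 661 pairs. Of the points, 445 lie below the dashed line of equal tags and 211 above it, and the points scatter widely (Spearman correlation 0.15 over pairs, some of which share a peak).

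The strength of a liver-adjacent uterus site did not follow that of its liver neighbour. Over the 1840 sites, uterus fold enrichment and the neighbour's liver fold enrichment had a Spearman correlation of 0.01 and a Pearson correlation of log2 values of 0.02. Over the 1179 sites with a liver-only neighbour the Spearman value was 0.02, and over the 661 with a shared neighbour it was 0.01. At the 1627 shared uterus peaks, where both tissues were read at the same place, the Spearman correlation was 0.38 and the Pearson correlation 0.44. Points within a list share 1 library and some sites share a neighbour, so these values are descriptions. The top decile of the liver list by fold enrichment, at 20.3-fold or more, supplied the neighbour of 177 sites, of which 16 (9.04%, 5.64 to 14.2) were in the top decile of the uterus list. Among the other 1663 sites the share was 153 (9.20%, 7.90 to 10.7).

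The sites beside the strongest liver neighbours ranged from 37 to 144 tags in uterus. The liver peak of 404 tags and 136-fold enrichment on chromosome 16 at 25220370 to 25221288 had a site of 66 tags at 24.5-fold in uterus, 4.33 kb away. On chromosome 6 the liver peak of 509 tags and 107-fold at 100009563 to 100010521 had sites on both sides, with 144 tags at 36.6-fold and 61 tags at 15.03-fold. The liver peak of 242 tags on chromosome 13 at 52152490 to 52153426 had a site of 37 tags at 8.83-fold, 8.59 kb away. All 3 liver peaks were shared, and the uterus peaks over them held 665, 755 and 509 tags.

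Strong neighbours that were each listed in 1 tissue only were found at 7 of the 1179 sites beside liver-only peaks (0.594%, 0.288 to 1.22). At these, chosen after their values were seen, a site in the top decile of the uterus list lay beside a liver-only peak in the top decile of the liver list, both by fold enrichment. Of all 1840 sites, those beside shared peaks included, 9.18% were in the top uterus decile and 9.62% had a neighbour in the top liver decile. The same shares over the 1179 sites alone are not given, so these values are no background for the 7. Whether 7 is more or fewer than the shares over the 1179 would give was not tested. The leading one was on chromosome 12, with a uterus-only peak at 111477240 to 111477932 (146 tags, 82.0-fold) and a liver-only peak at 111482744 to 111483339 (60 tags, 26.02-fold), 5.56 kb apart. On chromosome 3 a uterus-only peak at 65462630 to 65463657 (211 tags, 41.5-fold) lay 4.31 kb from a liver-only peak of 85 tags and 29.9-fold. On chromosome 5 a uterus-only peak of 106 tags at 53592181 to 53592801 lay 4.65 kb from a liver-only peak of 235 tags. The others were on chromosomes 11, 2, 6 and 4. By the choice itself, neither peak had a listed counterpart in the other tissue in all 7.

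As a group, the liver peaks beside the sites resembled the rest of the liver list. The 1355 neighbours had a median of 58 tags (55 to 59) and 11.3-fold enrichment (11.03 to 11.6), and the other 5541 autosomal liver peaks 58 tags (57 to 59) and 11.1-fold. Among shared peaks the neighbours had fewer tags, with medians of 63 (60 to 67) against 69 (67 to 71), and were narrower, at 658 against 688 bp. Among liver-only peaks the medians were 55 tags each. The uterus sites differed little by the kind of neighbour, with medians of 59 tags (56 to 62) and 13.6-fold beside shared peaks and 56 tags (54 to 58) and 13.2-fold beside liver-only peaks. Distances were also close, at 4.26 kb (3.95 to 4.61) beside shared and 4.77 kb (4.40 to 5.16) beside liver-only peaks.

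Every autosome held liver-adjacent uterus sites, from 57 on chromosome 18 to 143 on chromosome 8. Of the uterus-only peaks of a chromosome, the sites made up 5.74% (4.59 to 7.16) on chromosome 3, the lowest, and 10.2% (8.70 to 11.9) on chromosome 8, the highest, followed by 10.1% (8.42 to 12.2) on chromosome 12. Chromosome 11 had the most sites per Mb, at 1.20, and also the most liver peaks, at 4.62 per Mb. Over the 19 autosomes the share and the density of liver peaks had a Spearman correlation of 0.56 and a Pearson correlation of 0.53, given as a description, since a denser liver list leaves less room to be far from it. Chromosome 12 did not follow this order, with a share of 10.1% at 2.38 liver peaks per Mb, while chromosome 15 had 7.05% at 3.52 per Mb. Per 100 liver peaks, chromosome 12 had 36.2 sites and chromosome 15 had 19.03. On chromosome 12 the nearest liver peak was shared for 51.5% of the sites, the highest value, and on chromosome 15 for 22.4%, the lowest. Chromosomes 18 and 1 came next to the highest, at 47.4% and 46.1%. Their sites made up only 6.80% of the uterus-only peaks on each. A relation between these shares was not tested.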

How the data were processed

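Peak lists of 1 uterus and 1 liver ESR1 ChIP-seq library were used; the 2 input samples entered through the authors' peak calling. Per the submitters' processing notes, the authors ran MACS 1.3.7.1 on mm9 for each library. Per the file headers, the tag size was 50 bp, the band width 300 bp, the model fold 15 and the p cutoff 1e-10, and background was read in the peak and in windows of 1000, 5000 and 10000 bp. No source used here names the aligner. Tags were deposited as raw counts per peak without scaling. The fold enrichment deposited beside them is a ratio of ChIP signal to the background expected from the control. Per the file headers the score is −log10 of p multiplied by 10, and the false discovery rate is a percent; the score served only to filter peaks. The controls held 22020520 unique tags in uterus and 18781348 in liver.

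A summit was placed at the peak start plus the summit offset minus 1, with coordinates taken as 1-based. Overlap of 1 bp made a peak shared. Intervals are 95%: Wilson for shares, order statistics for medians, exact Poisson for densities and exact binomial for tag pairs and for ratios of pair counts. They cover counting or the variation over peaks of 1 library, not animals, and tags without molecular identifiers are not all independent molecules. No test was run, since each tissue had 1 library and the sites were chosen from the lists. The search for sites was tested on simulated data.

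Named sites were the 8 of highest fold enrichment, the 8 with most tags, the 4 closest, those of the 3 liver peaks with most sites (ties broken by summed tags), 3 on each side of the 10 kb limit, the 4 highest and 4 lowest tag ratios to a shared site, and the 4 with the strongest liver neighbour. The sites and rules were chosen with earlier results of these data known. Motifs and nearby genes had been planned and were not analysed here, as they need an mm9 genome. Values were computed in Python 3.11.15 with pandas 2.3.3, numpy 2.4.6 and scipy 1.17.1 and drawn with matplotlib 3.10.9.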

Additional observations from a re-analysis of the deposited data

How the results depend on the processing

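Of 102 values recomputed under other settings, 64 stayed within the interval of the reported value (within 1.5 times for the number of sites). The other 38 moved outside it. No difference of medians changed sign, while the density ratio around liver-only peaks fell on both sides of 1, as given below. The cause of each move was not tested, apart from those that a shorter list or another limit brings by construction. With a limit of 5 kb there were 988 sites, 4.31% of the uterus-only peaks, at a median of 2514 bp, and 38.5% had a shared neighbour. With 20 kb there were 3219 sites (14.1%, median 8705 bp), 60.7% with another uterus summit within 10 kb. Distances between edges gave 8.47% and 4848 bp. Counting peaks up to 500 bp apart as shared gave 7.42%, 5034 bp and 38.4% with a shared neighbour. Counting only summits within 200 bp gave 9.23%, 3753 bp, 25.5% with a shared neighbour and 65.3% with uterus company, and liver-adjacent minus remote medians of -1.99 in fold enrichment and 44 bp in width, against -1.61 and 23.5 bp as reported. At a MACS score of at least 200, 513 sites remained (4.04%), with 30.4% beside shared peaks, 60.2% with uterus company, differences of -2.72 in fold enrichment and 9 bp in width, and fewer tags than the shared site in 76.3% of pairs. There the differences in width (-17.4 to 35.4 bp) and in tags (2, -3.099 to 7.099) had intervals that include 0, unlike those as reported (14.0 to 33.0 bp, and 3, 0.938 to 5.06). With the fold enrichment at 10 or above there were 997 sites (5.31%), with 28.2% beside shared peaks, 61.3% with uterus company and differences of -0.79 and 34 bp.

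This ratio and its alternatives were chosen after seeing the data: the density of uterus-only summits at 1 to 10 kb over that at 50 to 100 kb was 1.57 around shared liver peaks at a score of at least 200 and 1.59 at a fold of at least 10, against 1.45 as reported. Around liver-only peaks, where 1.00 was reported, it lay on both sides of 1, at 1.15 and 1.07 under the same settings, 0.935 with peaks up to 500 bp apart counted as shared and 1.10 with summits within 200 bp. These last alternatives move close neighbours into or out of the liver-only class by construction. No paired analysis was possible because each tissue had 1 library, and for the same reason no replicate could be left out. Depth limits the word uterus-only: a liver site under the cutoff is not listed.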

Other observations

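Chromosome X was outside the rule. It held 301 uterus-only peaks, of which 10 (3.32%, Wilson interval 1.81 to 6.01) had their summit within 10 kb of one of its 36 liver summits. These 10 peaks held 26 to 89 tags and were 8.96- to 25.2-fold enriched, with medians of 42.5 tags and 12.3-fold.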
